A study of Mus musculus with 8 samples.

Results

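The Ly6/uPAR proteins are small, cysteine-rich proteins built on a fold of finger-like loops, most of them tethered to the outer face of the cell membrane by a lipid anchor and a few of them secreted. In stratified epithelia several members are made by keratinocytes as they leave the basal layer, while others mark blood vessels, leukocytes and progenitor cells and are induced by interferons. A further set is made in neurons, where it acts on nicotinic acetylcholine receptors. The genes followed here are 8 in number. Ly6g6c, Lypd3, Ly6d and Slurp1 are the keratinocyte members, Ly6a, Ly6c1 and Ly6e the vascular and interferon-responsive members, and Ly6h the neural member.

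Transcript levels were measured on single-colour oligonucleotide arrays in whole skin of mouse embryos at stage E18.5, late in gestation. The groups were p63 null and wild-type embryos from crosses of p63 heterozygous mice, and p63, encoded by Trp63, is the transcription factor on which stratified epithelia depend. Both chips of one array set, A and B, were hybridised with 2 embryos of each genotype, which gives 8 arrays, and the chips carry different probe sets. The p63 allele, the strain and the sex of the embryos were not given in the sources used here.

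Members were found by symbol, using probe sets to which the platform annotation gives 1 symbol. Of the 8 genes 6 had such a probe set, 5 genes of the A chip and 3 of the B chip, out of 8252 and 7548 genes named in this way on those chips. Together they had 11 probe sets, of which the A chip held 7 and the B chip 4. Ly6a, the stem-cell antigen Sca-1, had none. Ly6c1, an antigen of endothelium and monocytes, had 1 probe set on the A chip that it shares with Ly6c2, which was therefore not read. The vascular and interferon-responsive side of the family was thus read through Ly6e alone. Of the 11 probe sets 8 had a mean signal high enough for testing, 4 on each chip. The remaining 3, on the A chip, were the probe set of Slurp1, the second probe set of Ly6d and the second A-chip probe set of Ly6e. In both groups the mean of each of the 8 tested probe sets lay above the signal that corresponds to the level for testing, 54.0 (A chip) and 167 (B chip).

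RefSeq promoter windows were at hand for 2 of the 6 genes read, Ly6g6c and Lypd3. They are shown because both transcripts fell in null skin. The window of Plaur, the urokinase receptor, is shown beside them because Plaur is a family gene near Lypd3, with 8 protein-coding genes between them in the RefSeq order, and its transcript moved the other way. Each holds the 250 bases before the annotated start, 5′ to 3′ on the plus strand of GRCm38.p6, at chr17:35067075-35067324 for Ly6g6c, chr7:24636320-24636569 for Lypd3 and chr7:24462233-24462482 for Plaur. Capitals mark motif matches on either strand.
Ly6g6c: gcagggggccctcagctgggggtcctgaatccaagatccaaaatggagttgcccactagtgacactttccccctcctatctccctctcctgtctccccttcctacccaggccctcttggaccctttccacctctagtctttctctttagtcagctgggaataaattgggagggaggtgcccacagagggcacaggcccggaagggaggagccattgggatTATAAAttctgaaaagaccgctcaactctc
Lypd3: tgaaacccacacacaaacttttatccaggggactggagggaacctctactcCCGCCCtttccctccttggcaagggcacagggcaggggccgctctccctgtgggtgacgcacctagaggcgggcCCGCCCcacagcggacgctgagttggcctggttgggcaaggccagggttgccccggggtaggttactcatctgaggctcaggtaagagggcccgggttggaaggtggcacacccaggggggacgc
Plaur: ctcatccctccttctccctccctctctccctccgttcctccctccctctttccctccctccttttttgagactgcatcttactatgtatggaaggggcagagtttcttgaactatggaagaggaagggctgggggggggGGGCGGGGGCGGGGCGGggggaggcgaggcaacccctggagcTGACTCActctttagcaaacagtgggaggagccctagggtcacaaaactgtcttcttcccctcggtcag

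Motifs searched were the TATA box TATAAA, the GC box GGGCGG, the AP-1 site TGANTCA, the core of an interferon-stimulated element (GAAA repeated after a gap of any 2 bases) and a paired p53-family core (CATG repeated after a gap of any 6 bases). Both strands were searched, and the motifs do not contain one another. The Ly6g6c window had 1 TATA box, beginning 30 bases before the start, and no GC box. TATAAA was found in 12.4% of all 32851 windows of this length. The Lypd3 window had 2 GC boxes, both on the minus strand, and no TATA box. The Plaur window had 3 GC boxes, which lie within 1 G-rich run, and 1 AP-1 site beginning 69 bases before the start. GC boxes occurred in 32.7% of all windows and AP-1 sites in 6.75%. The paired p53-family core and the interferon element, present in 0.49% and 2.98% of windows, had 0 matches in these 3 windows, which says only that these letters are not there.

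Trp63 itself, read on the A chip, read 379.3 and 347.1 in the wild-type embryos but 61.9 and 46.6 in null embryos. The beta-actin 3'/5' ratio, which rises as RNA degrades, was higher in wild type (1.63 and 1.69) than in the null (1.27 in each) for A-chip arrays, and likewise for B-chip arrays, at 1.50 and 1.98 against 1.36 and 1.33. It moved with genotype beside every change below, and its part in them was not tested. Null array 2 of each chip stood apart in an added hybridisation control, the CreX 3' spike, which read 6420 in it against 3334 to 3837 elsewhere (A chip), and 32512 against 16966 to 18942 (B chip). Values without it are given below for Ly6h and Itgav only. Leaving out one or the other of 2 null arrays moves any log2 fold change, null minus wild type, by equal and opposite amounts. Such shifts therefore do not single out null array 2. For Serpinb2 (A chip, -2.85 with both) the values were -2.54 without null array 2 and -3.16 without null array 1. For Ly6g6e (B chip, -3.04 with both) these values were -2.71 and -3.37, and for Lypd6b (B chip, -2.28 with both) -2.56 and -1.99. Across all tested probe sets, 44.3% of 7453 (A chip) and 29.4% of 7446 (B chip) differed between the genotypes at an adjusted p of 0.05 in limma.

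The keratinocyte members that could be tested were lower in null skin, and Ly6e and Ly6h were higher. On the A chip 2 of the 4 tested member probe sets fell and 2 rose, against 22.2% lower and 22.1% higher among all tested probe sets. On the B chip 3 of 4 fell and 1 rose, against 14.9% and 14.5% in the background. The 2 null embryos lay on one side of the 2 wild-type embryos for all 8 tested member probe sets, a separation seen in 73.9% of all probe sets tested for the A chip and 67.7% for the B chip. The members were few and chosen with earlier results known, so these counts are descriptive.

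**Figure D1:**
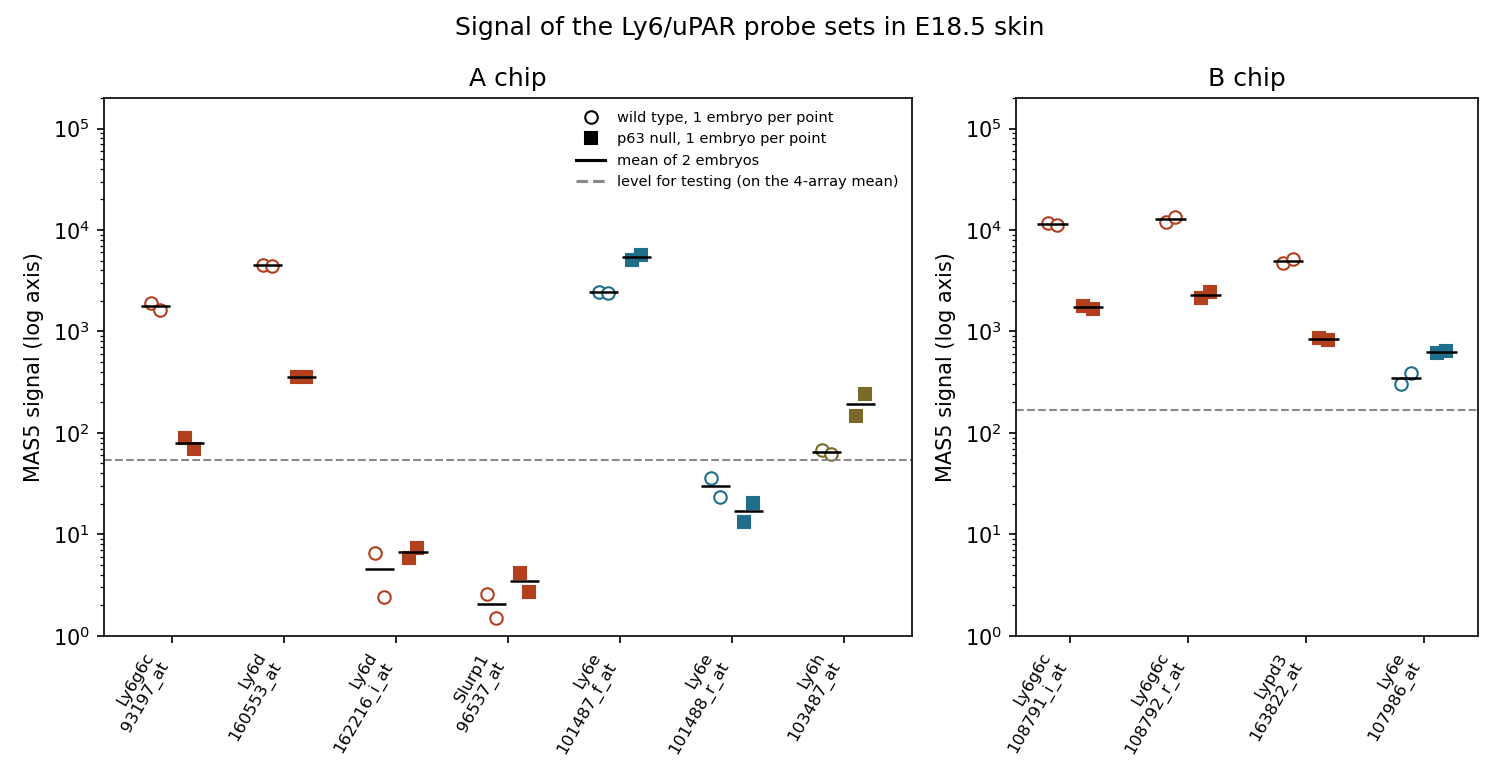
MAS5 signal of the 11 member probe sets (log axis) on the A chip and the B chip, with 1 point per embryo, open circles for wild type, filled squares for p63 null and a bar at the mean of 2 embryos. The red keratinocyte probe sets above the dashed level for testing are lower in the null, those of Ly6e (blue) and Ly6h (ochre) above it are higher, and Slurp1 lies below 5 in every array.

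Ly6g6c, a membrane-anchored family protein encoded in the major histocompatibility complex class III region, had the largest fall among the members. Its A-chip signal was 1904 and 1634 in wild-type skin but 89.7 and 70.1 in null skin. The null mean was 4.52% of the wild-type mean. The log2 fold change, null minus wild type, was -4.27 (SE 0.15, limma adjusted p = 1.06e-07), the 16th lowest of the 7453 tested on the chip. On the B chip 2 probe sets from the same deposited sequence read Ly6g6c. Set 108791_i_at gave 11724 and 11279 in wild type against 1796 and 1675 in the null, and set 108792_r_at gave 11990 and 13504 against 2121 and 2448. Both null embryos were far below both wild-type embryos in each. The log2 fold changes were -2.69 (SE 0.11, limma adjusted p = 7.94e-06) and -2.45 (SE 0.13, limma adjusted p = 2.46e-05). The signal left in the null was thus 15.1% and 17.9% of wild type by the B-chip sets and 4.52% by the A-chip set. The direction was shared and the size was not. The probe sets and the scaling of the chips differ, and neither the difference in size nor its cause was tested.

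Ly6d, an antigen of keratinocytes linked to their adhesion and also carried by early lymphoid cells, had the smallest standard error of the A-chip members. Its main probe set gave 4554 and 4446 in wild-type skin but 354.7 and 357.0 in null skin, a 12.6-fold lower mean. The log2 fold change was -3.61 (SE 0.11, limma adjusted p = 4.24e-08). The gap between the genotypes was many times the spread within either. The second Ly6d probe set read 6.6 and 2.4 in wild type, against 5.9 and 7.4 in the null, below the level for testing, with overlapping groups.

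Lypd3, also called C4.4A, a membrane-anchored protein of the suprabasal layers of stratified epithelia, was read on the B chip. Signals were 4756 and 5172 in wild type, against 868.7 and 813.9 in the null. The null mean was 16.9% of the wild-type mean, with a log2 fold change of -2.49 (SE 0.12, limma adjusted p = 2.05e-05). This fall and those of the Ly6g6c probe sets on the same chip had overlapping 95% confidence intervals. The interval was -2.77 to -2.20 for Lypd3, -2.96 to -2.43 for 108791_i_at and -2.75 to -2.15 for 108792_r_at. The Lypd3 fall was smaller than that of 108791_i_at by 0.21 on the log2 scale (exact permutation test, two-sided, p = 0.333, adjusted p = 0.5 over the 6 pairs of the chip) and larger than that of 108792_r_at by 0.03 (exact permutation p = 1.00), where 2 embryos against 2 cannot give a p below 0.333.

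Slurp1, a secreted protein of the upper epidermis whose loss causes a palmoplantar keratoderma in people, could not be assessed. Its single probe set read 2.6 and 1.5 in wild type, against 4.2 and 2.7 in the null. All lay below 12.9, the 20th percentile of signals on that chip, so the probe set gave no usable level in either genotype.

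Ly6e, a broadly expressed membrane protein induced by interferons and known for its effects on virus entry, moved the other way. Its A-chip probe set 101487_f_at gave 2473 and 2411 in wild type, against 5082 and 5731 in the null. The null mean was 2.21 times the wild-type mean, with a log2 fold change of 1.14 (SE 0.12, limma adjusted p = 7.90e-05). The suffix of this probe set marks probes that can match several members of a sequence family. The second A-chip probe set, 101488_r_at, from the same deposited sequence, read 36.1 and 23.4 in wild type, against 13.2 and 20.4 in the null. It was below the level for testing, and without a filter its log2 fold change was -0.52 (limma adjusted p = 0.218), so the pair disagreed in sign. On the B chip Ly6e gave 302.7 and 392.8 in wild type, against 617.2 and 638.4 in the null. Its log2 fold change there was 0.77 (SE 0.18, limma adjusted p = 0.0197). Without wild-type replicate 1 it was 0.61 and was not called, in a fit that leaves a single wild-type array. Calls over the whole B chip also fell in that fit.

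Ly6h, a neuronal member that regulates nicotinic receptors, had a low signal that rose in the null. Wild-type skin gave 68.1 and 62.6, and null skin 146.5 and 239.9. The groups did not overlap, and the null embryos differed far more between themselves than the wild-type embryos did. The log2 fold change was 1.36 (SE 0.24, limma adjusted p = 0.00165). It was 1.03 without null replicate 2, the array with the high spike, and 1.69 without null replicate 1. With 2 null arrays these shifts are equal and opposite by construction, so they do not single out the array with the high spike.

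The contrast between the keratinocyte members and Ly6e was large within each chip. Ly6e and Ly6d changed by amounts that differed by 4.75 on the log2 scale, and Ly6e and Ly6g6c by 5.41, both among A-chip probe sets. For the B chip the Ly6e change differed from that of Lypd3 by 3.26 and from those of the Ly6g6c probe sets by 3.46 and 3.22. In each of these 5 pairs the exact permutation p, two-sided, was 0.333, the smallest that 2 embryos against 2 allow. With 6 pairs computed per chip, Benjamini-Hochberg adjustment gave 0.4 for the A-chip pairs and 0.5 for the B-chip pairs, so these differences are reported as sizes. Ly6d and Ly6e lie in one gene cluster, with 7 protein-coding genes between them in the RefSeq order.

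Other family genes moved in both directions. Of 30 further Ly6/uPAR genes 9 were read by 1 symbol with the A chip and 5 with the B chip, and 3 and 4 of them were tested. On the A chip 3 rose and 0 fell, against 22.1% higher and 22.2% lower among all tested probe sets. Over all 9 genes read there, fitted without the filter on low signal, the median log2 fold change was 0.30 against 0.06 over all probe sets. Plaur, the receptor that focuses urokinase on the cell surface, rose from 32.6 and 60 to 128.9 and 137.9 (log2 fold change 1.34, SE 0.25, limma adjusted p = 0.00255). Its wild-type mean was below the level for testing, so it was tested because of its null level. Cd59a and Cd59b, inhibitors of the complement membrane attack complex, had log2 fold changes of 0.80 in both cases (limma adjusted p = 0.00369 and 0.00928). The transcripts are closely related, and the probe sets may bind both. The A-chip genes below the level for testing were Ly6f, Ly6g, Ly6g6d, Lypd8, Psca and Acrv1, with signals of at most 62.2.

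On the B chip 2 of the 4 fell and 0 rose, against 14.9% lower and 14.5% higher among all tested probe sets. Both that fell, Ly6g6e and Lypd6b, had null means below the level for testing and were tested because of their wild-type levels, so this count is no support for a direction. Over all 5 genes read there, without the filter, the median was -0.44 against 0.06 over all probe sets. Ly6g6e, separated from Ly6g6c by 1 protein-coding gene, fell from 799.5 and 971.0 to 88.5 and 36.2 (log2 fold change -3.04, SE 0.27, limma adjusted p = 0.000308). Lypd6b fell from 662.5 and 598.4 to 61.3 and 117.3 (-2.28, SE 0.25, limma adjusted p = 0.000889). Lypd6, a family member that acts on Wnt signalling, had a value of -0.44 (adjusted p = 0.201) in its tested probe set. Of its other probe sets, below that level, 164298_r_at read 66.5 and 105.1 in wild type, against 328.6 and 184.4 in null skin, the opposite order. Tex101, a germ cell protein that adjoins Lypd3 in the gene order, had a value of 0.01 (limma adjusted p = 0.985), and its wild-type embryos gave 575.8 and 291.8.

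**Figure D2:**
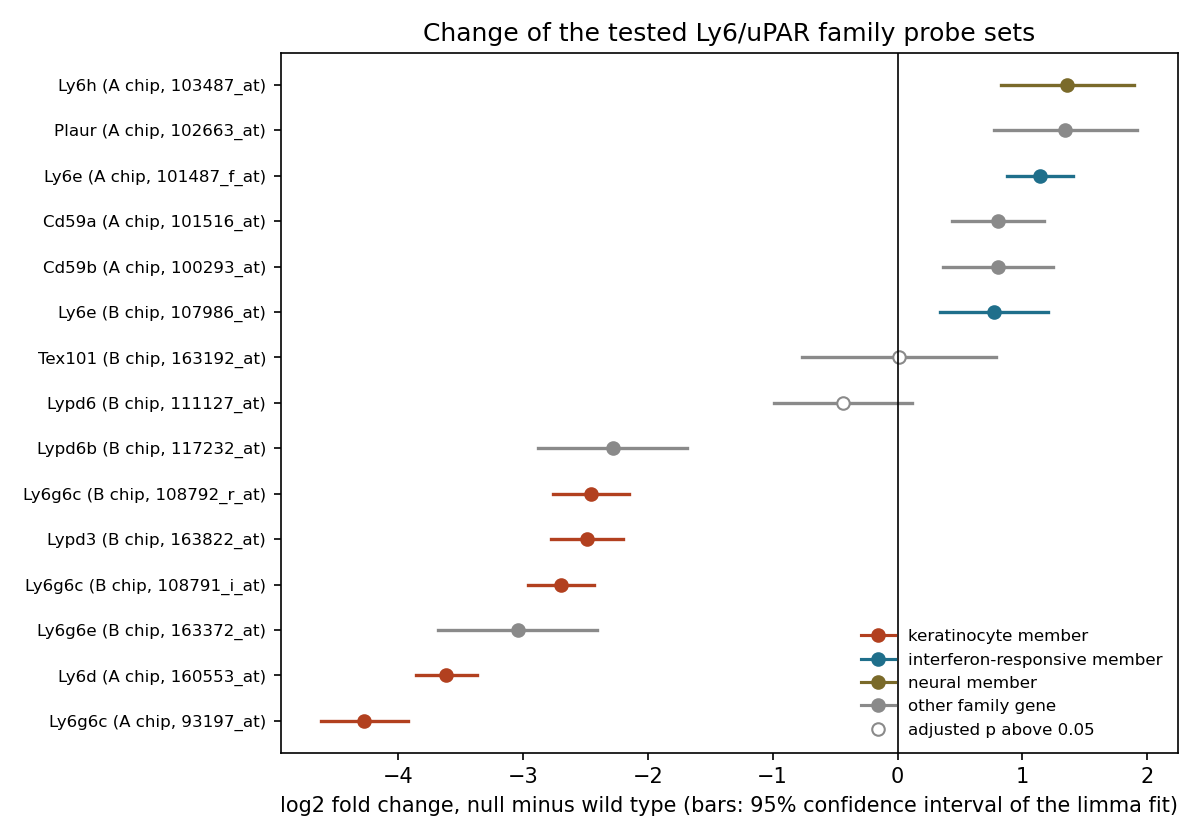
Log2 fold change, null minus wild type, of the 15 tested Ly6/uPAR family probe sets, with bars for the 95% confidence interval of the limma fit and open points where the adjusted p is above 0.05. Ly6g6c on the A chip lies lowest at -4.27 and Ly6h highest at 1.36, with Tex101 and Lypd6 not called.

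Plaur belongs to the urokinase system, of which 10 further genes were listed and 5 tested on the A chip, 2 higher and 1 lower. Among all tested A-chip probe sets 22.1% were higher and 22.2% lower. Plat, tissue plasminogen activator, and Lrp1, the receptor that clears activator and inhibitor complexes, rose by 0.97 and 1.06 on the log2 scale (limma adjusted p = 0.000308 and 0.000161). Serpinb2, an inhibitor of plasminogen activators made by keratinocytes, fell from 963.9 and 1027 to 160.3 and 99.9 (log2 fold change -2.85, SE 0.19, limma adjusted p = 6.94e-06). Its direction was that of Ly6d and Ly6g6c, not that of Plaur. The integrin genes Itgb1 (0.28, limma adjusted p = 0.0817) and Itgav (0.07, limma adjusted p = 0.803) were not called. Plau, urokinase itself, read 29.2 to 59.3 and was not tested, and neither were Plg and Vtn.

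Suprabasal keratinocyte markers fell together with the keratinocyte members. All 12 tested A-chip genes and all 4 tested B-chip genes fell, against 22.2% and 14.9% lower among all tested probe sets. The medians were -3.34 and -3.24 against 0.02 and 0.04 over all tested probe sets. Of these, Dsc1 and Ivl on the A chip and Dsg1a on the B chip had null means below the level for testing and were tested because of their wild-type levels. Leaving them out, 10 of 10 and 3 of 3 fell, with medians of -3.16 and -4.08. Over all 13 and 5 genes read, fitted without the filter, the medians were -3.17 and -2.40. Their summed signal ran from 42186 to 45393 in wild type, against from 5413 to 6110 in the null on the A chip. The leading ones by signal were Krt10, Krtdap, Krt1 and Flg, with log2 fold changes of -1.71, -3.03, -3.14 and -4.41. Ly6g6c and Ly6d lay within the range of this list on the A chip, -5.42 to -0.57. In RNA of whole skin, fewer keratinocytes and less of a transcript per keratinocyte cannot be told apart.

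Interferon-response genes rose beside Ly6e. Of 19 tested A-chip genes 18 rose and 0 fell, and all 5 B-chip genes rose, against 22.1% and 14.5% higher among all tested probe sets. The medians were 1.53 and 2.23 against 0.02 and 0.04 over all tested probe sets. On the A chip 7 of the 19 (Irf7, Igtp, Ifit1, Usp18, Ifit3, Irgm1 and Ifi47) had wild-type means below the level for testing and were tested because of their null levels. Leaving them out, 11 of 12 rose, with a median of 1.27. Over all 23 and 6 genes read, fitted without the filter, the medians were 1.52 and 1.70. Their summed signal was 6017 to 6271 in wild type, against 14354 to 16082 in the null on the A chip. B2m, the light chain of class I molecules, and Ifitm3, an inhibitor of virus entry, rose by 0.94 and 1.08, amounts near that of Ly6e, while Irf9 and Isg15 rose by 1.27 and 1.97. Of the 12 A-chip genes with both group means above the level, 7 had a larger log2 fold change than Ly6e.

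Endothelial markers rose as well, 11 of 15 tested A-chip genes and 4 of 6 B-chip genes, with 0 lower. The shares higher among all tested probe sets were 22.1% (A chip) and 14.5% (B chip). Medians of the endothelial markers were 0.64 and 0.63 against 0.02 and 0.04 over all tested probe sets. Their sums were 4797 to 4979 against 7248 to 8263 on the A chip. Eng, Ramp2 and Cdh5 rose by 0.96, 0.53 and 0.90, and Sox18 had a value of -0.18 (limma adjusted p = 0.300). A-chip Pecam1, Kdr and Fli1 were not called either, at 0.64, 0.35 and 0.40 (limma adjusted p = 0.133, 0.137 and 0.157). The B-chip probe set of Fli1 was also not called (0.39, limma adjusted p = 0.0885). Flt1 rose by 0.94 in its A-chip probe set 98452_at (limma adjusted p = 0.00284). Its B-chip value was -0.03 (limma adjusted p = 0.957), with null signals of 164.1 and 387.6. Of the tested endothelial markers 0 of 15 had a larger log2 fold change than Ly6e on the A chip and 1 of 6, Plvap (1.39), on the B chip. That Plvap value is from probe set 111358_at, and another, 165259_r_at, ranged only from 777.4 to 1206.6 over the arrays. Leukocyte markers rose in 11 of 14 cases on the A chip, against 22.1% higher among all tested probe sets. Their median was 1.15, with sums of 3939 to 4187 in wild type against 9657 to 10423 in the null. Over all 19 leukocyte genes read there, fitted without the filter, the median was 0.97 against 0.06 over all probe sets. C1qb, Ctss and Laptm5 rose by 1.51, 1.98 and 1.32, and Tyrobp had a value of 0.39 (limma adjusted p = 0.0522). Cd79a and Itgax were not called either, at 0.17 and -0.01 (limma adjusted p = 0.593 and 0.973). Of the 14 leukocyte markers 7 had a larger log2 fold change than Ly6e. Among defining markers at low signal on the A chip, Cd3e and Cd3g, which define T cells, read at most 17.1 and 6.5 in any array. Ptprc, the leukocyte antigen CD45, read 47.7 to 101 in its brightest probe set, with a wild-type mean below the level for testing, while another probe set stayed at or below 0.8. No value of these lists was exactly 0. The part of any of these cell types in the rise of Ly6e was not tested.

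Neural and Schwann cell markers were listed for comparison with Ly6h, a neuronal member. The list mixes neuronal and Schwann cell genes, so it does not stand for the cell type of Ly6h alone. Of 7 tested on the A chip 0 rose and 2 fell, against 22.1% higher and 22.2% lower among all tested probe sets. The median of the 7 was -0.16, with sums of 2793 to 3017 in wild type against 2223 to 2324 in the null. The largest part of that drop was Erbb3, at 721.9 and 710.8 in wild type against 345.8 and 315.6 in the null. Ncam1 added a smaller part, and the other 5 genes were not called. The lower sum therefore does not stand for the list as a whole. Tubb3 and Gap43, neuronal genes, had values of -0.16 and 0.12 (limma adjusted p = 0.307 and 0.610). Erbb3 and Ncam1 fell, with log2 fold changes of -1.09 and -0.55. Neuronal markers Nefl, Nefm and Snap25 were at low signal and were not tested on either chip.

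**Figure D3:**
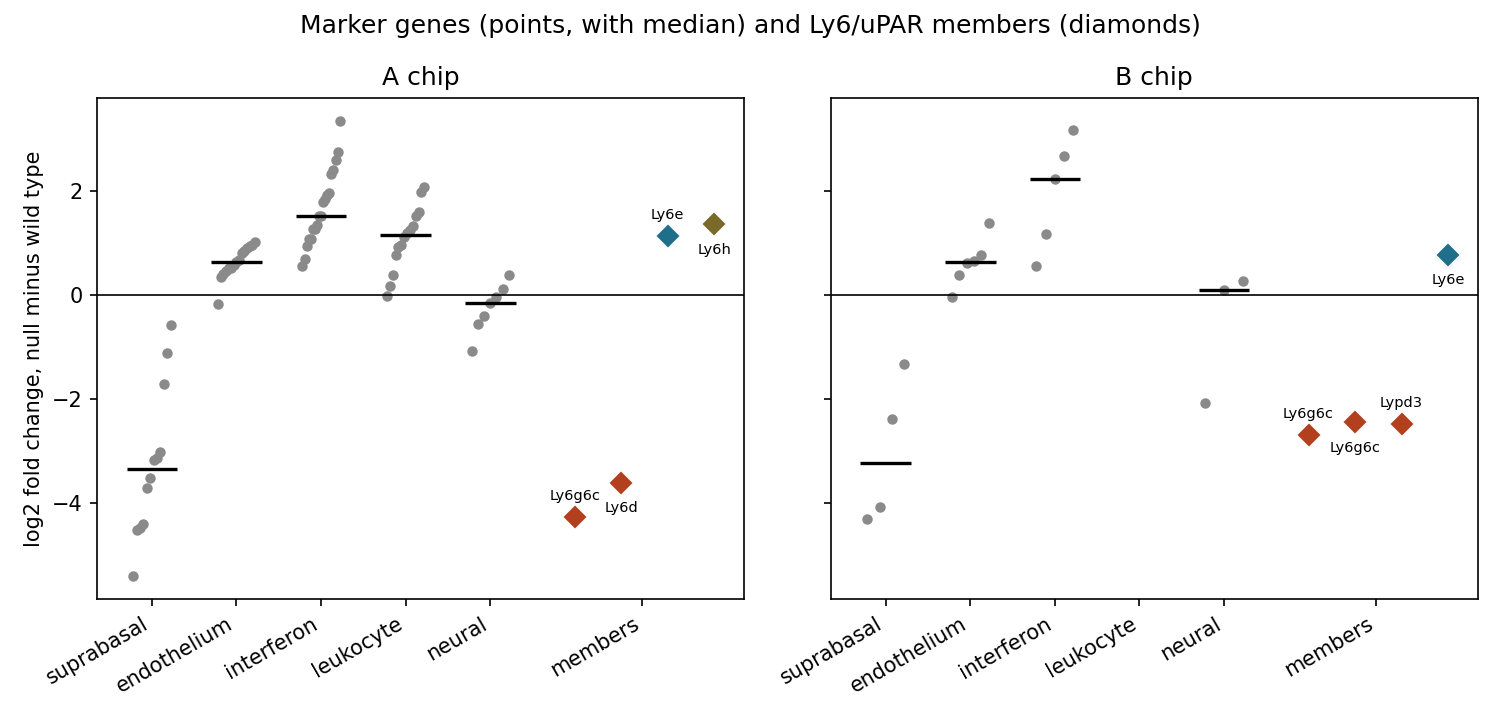
Log2 fold change, null minus wild type, of the tested marker genes (grey points, 1 per gene, bar at the median) and of the tested member probe sets (diamonds) on each chip, with suprabasal, endothelial, interferon-response, leukocyte and neural lists from left to right. Ly6g6c, Ly6d and Lypd3 lie at the depth of the suprabasal genes, and Ly6h lies above every tested neural gene of the A chip. Ly6e lies above 0, as do the medians of the interferon, endothelial and, on the A chip, leukocyte genes. On the A chip Ly6e also lies above every tested endothelial gene.

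The genes whose pattern was closest to each member were found by the root mean square difference of centred log2 values over the 4 arrays of a chip. Members that moved in opposite directions could hardly share closest genes by this measure, so a difference between the 2 sides of the family is no result. Among 5775 genes of the A chip the closest to Ly6d were Asprv1, a protease that processes filaggrin, Esrp1, an epithelial splicing regulator, and Casp14, the caspase of cornification, at differences of 0.06, 0.07 and 0.07. Closest to Ly6g6c were Cyp2b19, a keratinocyte epoxygenase, at 0.04, then the desmosomal genes Pkp1 and Dsc1 at 0.14 and 0.18. Closest to Ly6e on the A chip were Rapsn, which gathers acetylcholine receptors at muscle synapses, Capn6 and Tst, at 0.02, 0.03 and 0.03. None of these 3 is on the interferon or endothelial list. Closest to Ly6h were Tpsb2, a mast cell tryptase, Meg3 and Hic1, at 0.06, 0.07 and 0.07. On the B chip, among 5342 genes, the closest to Lypd3 were Cobl, Mpzl3 and Mreg, at 0.03, 0.04 and 0.04, and the closest to Ly6e were Fbxo31, Lrtm1 and Pbxip1, each at 0.03. The closest to Ly6g6c were Plcxd2, Mboat2 and Gm128 for 1 probe set and Rdh12, Rab38 and Cnfn, a protein of the cornified envelope, for the other. With 4 arrays, such likeness mostly reflects the size of the change between genotypes.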

How the data were processed

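RNA was extracted with TriZol and cleaned on RNeasy columns, per the labels' protocols. The deposited values are linear intensities per probe set made by the authors with MAS5, per the submitters' processing notes, with no version or detection call given in the sources used here. They were already scaled, since the 2% trimmed means were 250.1 to 250.2 (A chip) and 500.1 (B chip). Each array was rescaled to the mean of these, the 20th percentile of the chip (12.9 and 54.3) was added, and log2 was taken, which understates changes of low signals. Control probe sets, 66 per chip, were dropped, and the probe sets whose mean log2 value exceeded the 40th percentile were tested with limma 3.58.1 in R 4.3.3 (lmFit, eBayes with an intensity trend, two-sided, Benjamini-Hochberg over all probe sets tested on the chip). The fit was tested on simulated data.

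Members and gene lists were chosen with earlier results of these data known. Named were every member probe set, every tested probe set of the family and urokinase lists, the 4 genes of highest signal per marker list and the 3 genes closest in pattern to each member; integrin genes with several probe sets were read by the highest. Genes named besides these were chosen after their values were seen. Embryos are the replicates, 2 per genotype. The limma p-values rest on a variance drawn both from the spread between embryos and from other probe sets of similar signal. Probe sets with several symbols were not named. The replicate numbers do not pair the genotypes by any label. Symbols come from the platform annotation, which can be old. The number of arrays limits the precision.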

Additional observations from a re-analysis of the deposited data

How the results depend on the processing

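Alternatives were quantile normalization, median centring, offsets at the 5th and 40th percentiles, no filter, a filter at the 60th percentile, no variance trend, the replicate block, and leaving out each array. Over the 8 tested member probe sets 94 of 95 alternative values kept their direction and their side of the threshold; the exception was Ly6e on the B chip without wild-type replicate 1 (0.61, adjusted p = 0.129; adjusted p from 0.0105 to 0.129 over its alternatives). Ly6h could not be fitted under the filter at the 60th percentile, which leaves its probe set out. The counts of member probe sets called stayed at 4 for the A chip and ran from 3 to 4 for the B chip when single arrays were left out. The counts over all probe sets, 3299 (A chip) and 2189 (B chip), ran from 2197 to 3303 and from 1103 to 2477 when single arrays were left out. Lowest were the A chip without wild-type replicate 2 and the B chip without wild-type replicate 2 (1103) or 1 (1139). Values of uncalled genes changed sign when single arrays were left out: Itgav from -0.27 to 0.41 (104386_f_at) and from -0.43 to 0.019 (104385_i_at), and Tex101 from -0.42 to 0.44. Itgav (104386_f_at) without null replicate 2 (adjusted p = 0.0137) and Itgb1 without null replicate 1 (adjusted p = 0.0321) then passed the threshold.

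With the replicate block 3368 probe sets were called on the A chip, and the calls of the members did not change. Deviations of same-numbered embryos correlated at 0.04 (A chip) and -0.05 (B chip) over probe sets, so the numbers were not taken to pair the genotypes. The cause of the changes when arrays were left out was not tested.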

Other observations

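L1cam, a neural adhesion gene read on the B chip, fell from 789.3 and 770.9 to 195.6 and 100.8 (log2 fold change -2.08, SE 0.25, limma adjusted p = 0.00128). Its null mean was below the level for testing, so it was tested because of its wild-type level. Sox10 and Ngfr of the same list had values of 0.10 and 0.28 (limma adjusted p = 0.575 and 0.295). Vascular Plvap on the B chip rose by 1.39 (limma adjusted p = 0.00677) in probe set 111358_at, and its null embryos gave 1270 and 2147. Probe set 165259_r_at of Plvap ranged only from 777.4 to 1206.6 over the arrays of that chip. Bst2, an interferon-induced membrane protein that also carries a lipid anchor, rose from 1034 and 1085 to 4410 and 6048 (log2 fold change 2.23, SE 0.17, limma adjusted p = 0.000130).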
